A study of Mus musculus with 8 samples.

Results

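The neutrophil granule genes described here are Ngp, Lcn2, Ltf, Camp, S100a8, S100a9 and Mpo, 7 of the 23478 genes counted in mouse embryonic trachea. They were taken by name from both deposited count tables, with earlier results of these data known, and they had been selected on their mutant and control CPM in both tables. Their levels are therefore a description, and calls from the fits over all genes are given only beside the share of all genes called. Neutrophils make their granules in the order in which they mature in marrow or fetal liver. Promyelocytes make primary granules, with myeloperoxidase (Mpo) and serine proteases, while myelocytes make secondary granules, with lactoferrin (Ltf), lipocalin 2 (Lcn2), cathelicidin (Camp) and neutrophilic granule protein (Ngp). S100a8 and S100a9 form calprotectin, a cytosolic protein pair abundant in mature neutrophils and also made by monocytes. Transcripts of early and late granule proteins thus mark different stages of one lineage.

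Libraries came from E13.5 embryos. The sorted tracheal cells were 2 libraries of Bmp4flox/flox embryos with Foxg1Cre+ and the reporter γSMAeGFP (Bmp4 mutants 1 and 2) and 3 libraries of Bmp4flox/flox embryos with the reporter and no Cre (Bmp4 controls 1, 2 and 3). The sort was set to remove epithelial cells bearing EPCAM and GFP-positive muscle cells. It named no leukocyte marker, so blood cells could remain. The whole tracheas were 1 library of Wls flox/flox, ShhCre+ embryos (the Wls mutant), in which Cre acts in Shh-expressing epithelium, and 2 libraries of Wls flox/flox tracheas without Cre. The labels give neither the cells in which Foxg1Cre acts nor whether libraries came from separate or pooled embryos, so p-values measure only the spread between libraries, which may be technical. Bmp4, a secreted signal, stood at 24.1 and 32.2 CPM (counts scaled to a common library total) in the Bmp4 mutants, against 124, 99.2 and 121 CPM in their controls. Wls, which Wnt secretion requires, stood at 65.7 CPM in the Wls mutant, against 153 and 146 CPM in its controls.

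The libraries of sorted cells differed in ways other than genotype. The Bmp4 mutants held 12964287 and 15462780 counts, and each of their controls between 48876948 and 55492747. The Wls mutant held 24596836 counts and its controls 27237573 and 31399982. Of all genes, 919 and 955 had no count in the Bmp4 mutants, against between 5573 and 6080 in each control. Over 4269 genes without a count in any of the 3 controls, mutants 1 and 2 averaged 21.1 and 19.6 counts for each kilobase of exon. This background was uneven, with medians of 16 and 14.7 and 90th percentiles of 55.1 and 52.6 counts per kilobase. Cartilage markers summed to 710 and 1661 CPM in the Bmp4 mutants and to between 2963 and 6457 CPM in controls, so the chondroblast label had its markers in every sorted library. Smooth muscle markers summed to 1788 and 420 CPM in mutants 1 and 2, against 325, 306 and 327 CPM in controls 1, 2 and 3. Muscle transcripts were thus present in every sorted library, and in mutant 1 their sum exceeded that of cartilage. Erythroid markers reached 120021 CPM in mutant 1 and only 39.7 CPM in control 1, and both libraries stood apart from the rest.

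The 7 genes lie on 4 chromosomes (mm10). Camp (chr9:109847377-109849456), Ngp (chr9:110419808-110423012) and Ltf (chr9:111019292-111042766) sit within 1.20 megabases of chromosome 9, while S100a8 (chr3:90669071-90670034) and S100a9 (chr3:90692630-90695721) are 22595 bases apart. Lcn2 is at chr2:32384637-32387739 and Mpo at chr11:87793784-87804412, where it overlaps Gm11505 on the opposite strand, a gene outside the count tables. Whether their exons overlap was not settled, since only exons of transcripts paired with RefSeq were compared. Promoters from 250 bases before to 50 bases after the start, from RefSeq on GRCm38.p6, matched all 7 genes. Transcripts of the 6 genes other than Mpo varied together across the controls, and Mpo did not vary with them. Of those 6 genes only the 3 of chromosome 9 have their promoters shown, beside that of Mpo. Capitals mark letters that match TTGCNNAA, a form of the site of C/EBP factors, which drive granule genes during granulocyte maturation, or ATTGC, a part of such sites.
Ngp promoter (chr9:110419558-110419857, plus strand): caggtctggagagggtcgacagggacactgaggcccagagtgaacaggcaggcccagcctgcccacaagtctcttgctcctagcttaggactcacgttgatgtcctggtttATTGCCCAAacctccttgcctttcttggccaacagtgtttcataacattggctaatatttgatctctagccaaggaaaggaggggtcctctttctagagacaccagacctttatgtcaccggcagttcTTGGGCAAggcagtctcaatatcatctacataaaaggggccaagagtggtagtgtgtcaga
Ltf promoter (chr9:111019042-111019341, plus strand): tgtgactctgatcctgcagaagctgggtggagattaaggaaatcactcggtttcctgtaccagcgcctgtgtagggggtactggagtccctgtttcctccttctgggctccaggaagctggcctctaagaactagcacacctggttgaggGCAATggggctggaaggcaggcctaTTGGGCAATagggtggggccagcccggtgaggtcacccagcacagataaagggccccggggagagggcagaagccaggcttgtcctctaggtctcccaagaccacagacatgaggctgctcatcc
Camp promoter (chr9:109849407-109849706, minus strand): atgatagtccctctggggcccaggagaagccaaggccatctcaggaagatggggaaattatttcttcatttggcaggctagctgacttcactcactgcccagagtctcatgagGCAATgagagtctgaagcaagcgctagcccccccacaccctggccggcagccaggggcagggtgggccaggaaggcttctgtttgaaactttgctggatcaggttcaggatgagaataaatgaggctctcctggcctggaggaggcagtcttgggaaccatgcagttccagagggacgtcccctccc
Mpo promoter (chr11:87793534-87793833, plus strand): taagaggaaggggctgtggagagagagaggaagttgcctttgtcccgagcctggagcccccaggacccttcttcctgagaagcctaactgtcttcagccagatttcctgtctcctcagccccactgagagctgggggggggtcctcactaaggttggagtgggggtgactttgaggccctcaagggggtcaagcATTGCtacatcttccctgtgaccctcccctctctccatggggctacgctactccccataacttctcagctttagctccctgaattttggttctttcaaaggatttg
On both strands, TTGCNNAA was in the windows of Ngp, Lcn2, Ltf and S100a9 and in 10.8% of all 32851 promoters. ATTGC, which can overlap it, was in all 7 windows and in 26.4% of promoters. GAGGAAGT, a string bound by the myeloid factor PU.1, was in the windows of S100a8 and Mpo and in 3.20% of promoters. TATAAA on the sense strand was in those of S100a8 and S100a9 and in 8.32% of promoters. These strings were kept from a few more that were looked at, and a match is a description of letters, not of binding.

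Among the secondary granule genes, Ngp, Lcn2 and Ltf stood below every control in both Bmp4 mutants, and Camp did not. Ngp, a cystatin-related granule protein, had 3.43 and 33.6 CPM in the mutants, against 334, 53.4 and 331 CPM in the controls. The lower control had 53.4 CPM, so the gap between the groups was smaller than the spread within each. Ltf, the iron-binding lactoferrin, had 11 and 12.1 CPM in the mutants, against 165, 28.5 and 159 CPM in the controls. Here the mutants were alike and control 2 was the lowest control. Lcn2, which binds bacterial iron carriers, had 1.90 and 3.91 CPM in the mutants, against 40.8, 9.22 and 52.1 CPM in the controls. Both mutants lay under control 2. Camp, the precursor of an antimicrobial peptide, had 2.12 and 27.2 CPM in the mutants, against 65.0, 8.14 and 77.5 CPM in the controls. Mutant 2 thus lay between control 2 and the other controls, and the groups overlapped.

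The calprotectin genes overlapped between the groups, with a wide spread within both. S100a8 had 0.730 and 109.8 CPM in the Bmp4 mutants, against 296, 57.5 and 347 CPM in the controls. The value of mutant 1 came from 10 counts, with an exact Poisson interval of 4.8 to 18.4 counts (95%, counting error only, since reads carry no molecular identifiers). S100a9 had 6.13 and 107 CPM in the mutants, against 195, 41.1 and 272 CPM in the controls. For both genes mutant 2 exceeded control 2, and mutant 1 was lower than every other sorted library.

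Mpo, the primary granule peroxidase, had another order of libraries. It had 112 and 39.6 CPM in the Bmp4 mutants, against 1.39, 46.8 and 74.4 CPM in the controls. Mutant 1, lowest for the other 6 genes, was highest for Mpo, and control 1, which was at or near the top for those genes, was lowest. The highest control exceeded the lowest 53.7-fold for Mpo, and between 5.65-fold (Lcn2) and 9.52-fold (Camp) for the others.

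**Figure D1:**
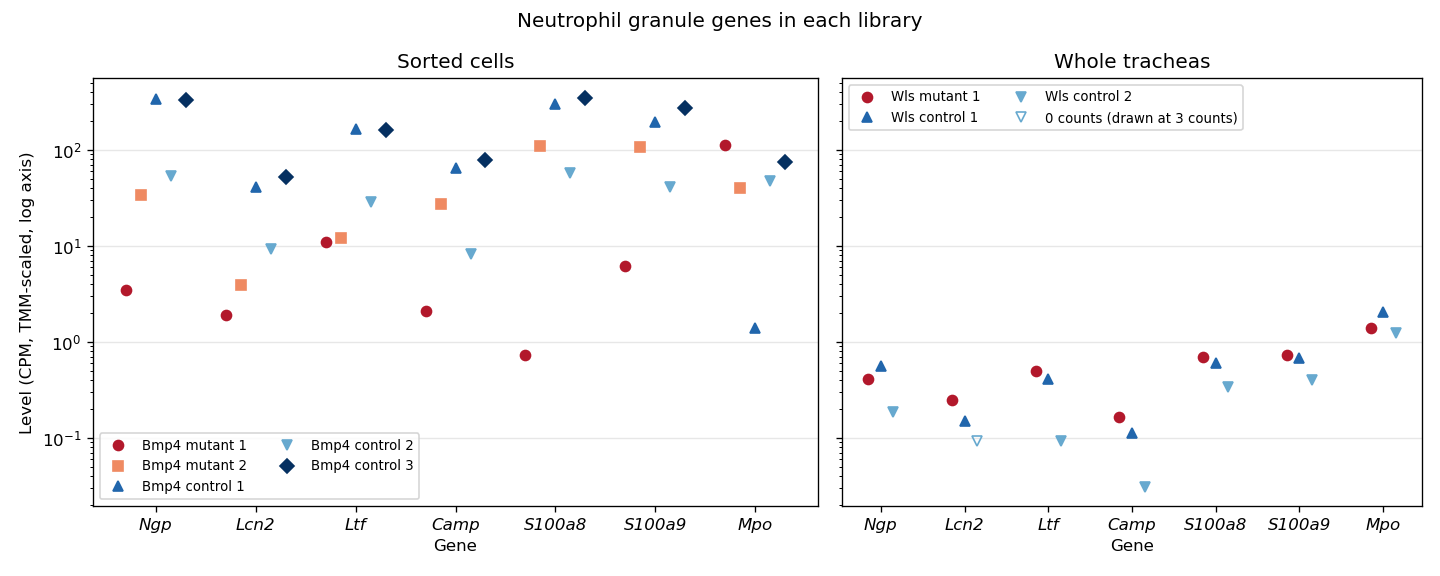
Level of each granule gene in each library, in TMM-scaled CPM on a log axis, for sorted cells (left) and whole tracheas (right), with 1 point per library; the open symbol marks 0 counts of Lcn2 in Wls control 2, drawn at 3 counts. Both Bmp4 mutants lie below all controls for Ngp, Lcn2 and Ltf, and Mpo of control 1 lies at 1.39 CPM while its other granule genes are high.

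As means of log2 CPM (prior count 2), mutants minus controls, the differences were -4.06 ± 1.86 for Ngp (SE, 2 mutants and 3 controls), -3.28 ± 0.93 for Lcn2 and -2.97 ± 0.84 for Ltf. Those of Camp, S100a8 and S100a9 were -2.17 ± 2.10, -4.28 ± 3.66 and -2.33 ± 2.22, and that of Mpo was 1.96 ± 1.94. For Camp, S100a8, S100a9 and Mpo the error was thus about as large as the difference. By edgeR's quasi-likelihood test, which adjusts p over all genes (Benjamini-Hochberg, under 0.05), 3 of the 7 genes were called lower (Ngp, Lcn2, Ltf) and 0 higher, where 15.6% of the 21665 genes tested were called lower, 39.3% higher and 54.9% in either direction. At an unadjusted p under 0.05 the counts were also 3 and 0, and DESeq2 gave the same numbers. The values of these genes were part of the choice, so nothing is read from the counts. In 22244 genes with 10 counts or more, every mutant lay below every control in 25% and above in 48.7%.

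Mutant 1 carried much of the size of these differences. Without it they were -2.44 for Ngp, -2.79 for Lcn2, -2.92 for Ltf, -0.36 for Camp, -0.73 for S100a8, -0.30 for S100a9 and 1.20 for Mpo. Lcn2 and Ltf moved least, and none of the 7 genes was then called by edgeR, with 3595 genes called in all. Without control 1, Mpo was at 0.17, and 3 of the 7 genes were called lower, as were 2296 of 21418 genes in all. In bulk samples fewer cells of a type and less RNA per cell cannot be told apart, in these and all values below.

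Set against the background of the mutant libraries, most granule counts of mutant 1 were close to those of silent genes. Ngp stood at 1.82 times the background rate in mutant 1 and 24.9 times in mutant 2, in counts per kilobase. Camp stood at 1.81 and 32.4 times, S100a8 at 0.975 and 204 times, and S100a9 at 7.67 and 186 times. Mutant 2 therefore held transcripts of these 4 genes far above background. Lcn2 at 1.35 and 3.86 times and Ltf at 2.59 and 3.97 times were low in both mutants. Mpo, at 26.3 and 13 times, was well above background in both. Ngp, Lcn2, Ltf, Camp and S100a8 of mutant 1 lay below the 90th percentile of silent genes, so at this depth they were not distinguishable from it. Subtracting this background removed counts from the mutants only, since its rate in the controls is 0 by the choice of silent genes. With background subtracted and the scaling kept, the median difference of the 7 genes was -3.40, against -2.97 in the deposited counts. A separate edgeR fit used subtracted counts of genes above background only, with new scaling. There the median fitted fold change of the 7 genes was -1.66 (log2), against -2.07 in the deposited counts. That fit called 0 of the 7 genes, with 204 of 13075 genes called lower. At an unadjusted p under 0.05, 3 were lower and 0 higher.

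**Figure D2:**
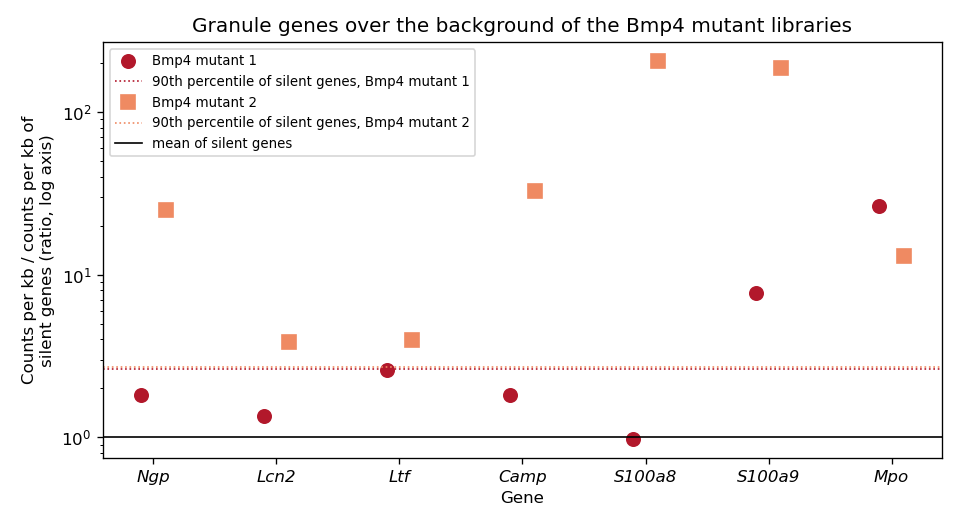
Counts per kilobase of exon of each granule gene in the Bmp4 mutants divided by the mean rate of the 4269 genes silent in the controls (log axis); the solid line is that mean and the dotted lines are the 90th percentiles of single silent genes. Only S100a9 and Mpo of mutant 1 rise above its dotted line, and all 7 genes of mutant 2 do.

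The 6 genes other than Mpo kept similar proportions in the 3 Bmp4 controls although their level varied. Their sum was 25.3 and 293 CPM in the mutants, against 1096, 198 and 1239 CPM in the controls. As shares of all counts these were 0.00267% (exact binomial 95% interval 0.00240 to 0.00297) and 0.0335% (0.0326 to 0.0344) in mutants 1 and 2, and 0.101%, 0.0184% and 0.120% in controls 1, 2 and 3. Per kilobase and relative to Ngp, controls had 0.224 ± 0.0123 for Ltf (SD, n = 3), 0.201 ± 0.0345 for Lcn2 and 0.312 ± 0.0656 for Camp. The ratios were 2.52 ± 0.259 for S100a8 and 1.71 ± 0.293 for S100a9. The highest control exceeded the lowest by 1.11-fold for Ltf and by 1.53-fold at most (Camp). For Mpo the controls had 0.00184, 0.390 and 0.0997, a range of 211-fold. By level per kilobase, every control had the order S100a8, S100a9, Ngp, Camp, Ltf and Lcn2, with means of 480.1 ± 318, 326 ± 226, 196 ± 132, 66.2 ± 48.8, 42.8 ± 28.1 and 37.2 ± 24.3 CPM per kilobase. Mpo averaged 14.9 ± 13.4 CPM per kilobase. Neighbours in this order overlapped across libraries, and the order held within each control.

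Bmp4 mutant 2 had other proportions than the controls. Relative to Ngp per kilobase, its S100a8 stood at 8.21 (counting interval 7.49 to 9.02), its S100a9 at 7.48 (6.82 to 8.22) and its Camp at 1.30 (1.15 to 1.47), each above all 3 controls. Its Ltf stood at 0.160 (0.136 to 0.187), below all 3 controls, and its Lcn2 at 0.155 (0.119 to 0.199), with an interval that reached the lowest control. Its Mpo stood at 0.524 (0.469 to 0.585), also above all 3 controls. So in this library calprotectin, Camp and Mpo were high, and Ltf low, relative to Ngp. Mutant 1 had ratios of 1.42 for Ltf, 0.739 for Lcn2, 0.995 for Camp, 0.535 for S100a8 and 4.21 for S100a9. All of these rest on 47 counts of Ngp, near background.

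**Figure D3:**
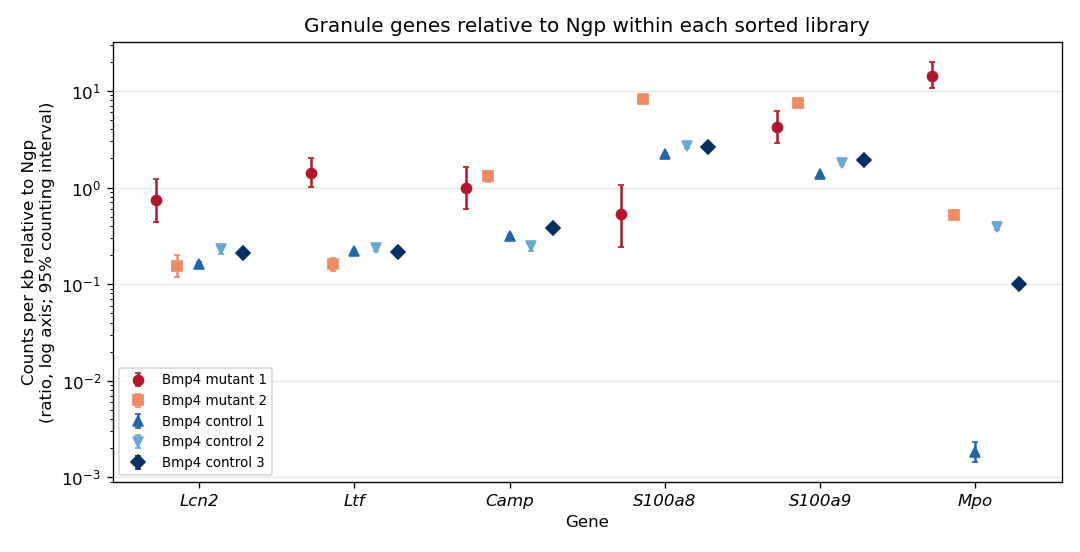
Counts per kilobase of each gene divided by those of Ngp within each sorted library (log axis), with 95% counting intervals. Control points lie close together for all genes but Mpo, whose ratio is 0.00184 in control 1, and mutant 2 lies above the controls for Camp, S100a8, S100a9 and Mpo.

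The pattern over the 5 sorted libraries was also described as a correlation of log2 CPM with the mean of the other granule genes without Mpo. Pearson's r was 0.989 for Ngp, 0.956 for S100a9, 0.951 for Camp, 0.929 for S100a8, 0.922 for Lcn2, 0.855 for Ltf and -0.56 for Mpo. These points share depth and background, and no p is given. Of 13573 genes ranked over all 8 libraries, with each table centred on its own mean, Cnot4 (r = 0.991), Fzd7 (0.990), Cenpl (0.989), Ftsj2 (0.987) and Rpp25l (0.986) were most like the mean of the 7 genes. Their amplitude was small. Cnot4, a subunit of an mRNA deadenylase complex, had 56.2 and 65.8 CPM in the Bmp4 mutants, against 77.0, 65.9 and 81.3 CPM in the controls. Most like Mpo alone, chosen after its values were seen, were Klf2, Serpina3g, Cd69, Gm10664 and Inpp5k, with r between 0.974 and 0.988. Cd69, a surface protein of activated leukocytes, had 38.6 and 19.9 CPM in the Bmp4 mutants, against 0.547, 18.1 and 18.3 CPM in the controls.

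Markers of other blood cells moved with these genes in part. Erythroid markers (16 genes, led by the embryonic globins Hbb-y and Hba-x) summed to 120021 and 1174 CPM in the Bmp4 mutants, against 39.7, 10031 and 10073 CPM in the controls. Their library order was that of Mpo throughout, from mutant 1 through control 3, control 2 and mutant 2 to control 1. Controls 2 and 3 were nearly equal for the erythroid sum. Pan-leukocyte markers (10 genes, none at 0) summed to 558 and 356 CPM in the mutants, against 244, 393 and 428 CPM in the controls. Here the order of libraries was again that of Mpo, with mutant 1 highest and control 1 lowest. Macrophage markers (17 genes, at most 1 at 0) summed to 397 and 420.0 CPM in the mutants, against 505, 280 and 498 CPM in the controls. Lyz2, lysozyme, which neutrophils share with macrophages, had 27.1 and 63.4 CPM in the mutants, against 283, 62.7 and 276 CPM in the controls, and was called lower (log2 fold change -2.19 ± 0.68, edgeR adjusted p = 0.0290, and 0.184 after background subtraction). Without Lyz2, a choice made after seeing these values, the macrophage sum was 369.6 and 357 CPM in the mutants, against 222, 217 and 222 CPM in the controls. The controls were then nearly equal while their granule genes differed several-fold. Eosinophil markers summed to 28.2 and 10.1 CPM in the mutants, against 0.0195, 15.2 and 0.187 CPM in the controls, and the mutant sums were 1.79 and 0.898 times what the background rate gives for these genes. Mast cell and basophil markers summed to 134 and 74.3 CPM in the mutants, against 21.2, 31.8 and 21.7 CPM in the controls. Those mutant sums were 4.79 and 3.69 times what the background rate gives. Of the 10 genes, 7, 5 and 5 had no count in controls 1, 2 and 3. Monocyte markers summed to 335 and 588 CPM in the mutants, against 1289, 920.3 and 905 CPM in the controls. Vcan, a matrix proteoglycan gene also used by mesenchyme, made up most of that sum, with 262 and 544 CPM in the mutants, against 1279, 898 and 881 CPM in the controls. Of the 8 monocyte markers, 4 were called higher by edgeR and 1, Vcan, lower, where 39.3% of all genes tested were called higher and 15.6% lower. After background subtraction 0 of the 4 still tested were called. The part of these cells in the granule values was not tested.

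**Figure D4:**
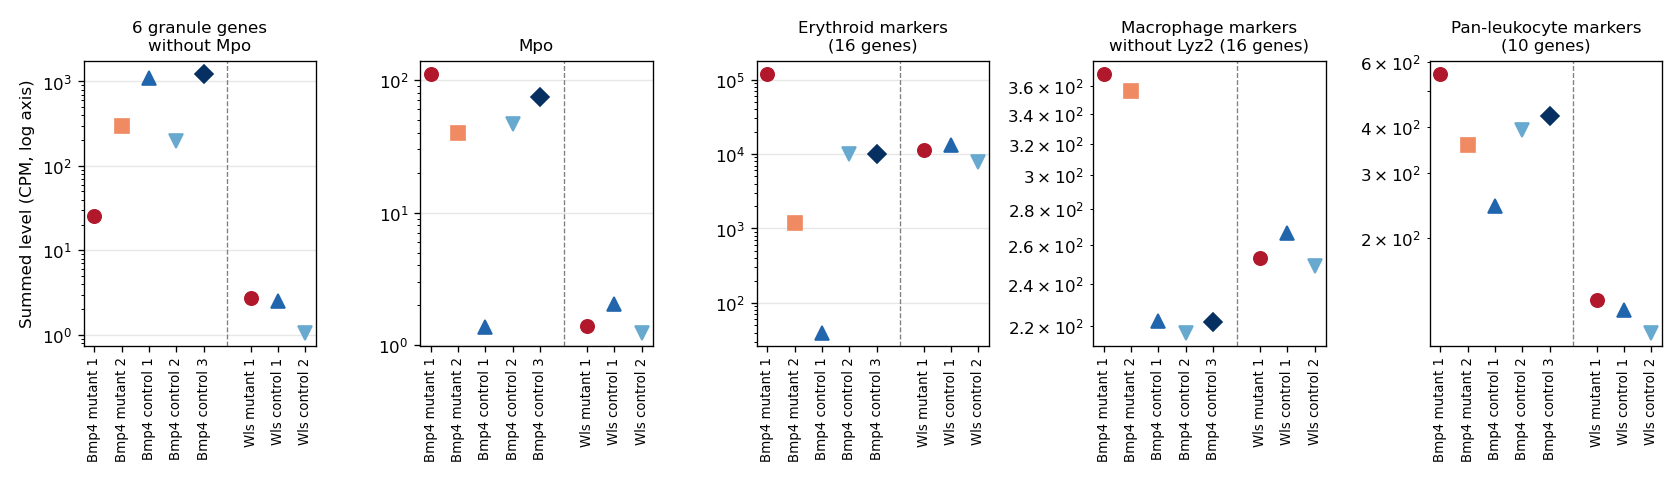
Summed CPM (log axes that differ between panels) of the 6 granule genes without Mpo, of Mpo, and of erythroid, macrophage (without Lyz2) and pan-leukocyte markers, with 1 point per library and the Wls tracheas right of the dashed line. Mpo and the erythroid sum are highest in Bmp4 mutant 1 and lowest, among sorted libraries, in control 1, whereas the 6-gene sum is lowest in mutant 1.

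The lists of other neutrophil genes, which do not hold Lyz2, gave no lower call. Of 58 such genes tested in the sorted cells, 14 were called higher by edgeR (24.1%, where 39.3% of all genes were) and 0 lower. Their median was 0.92 on the log2 scale, against 0.53 over all genes. At an unadjusted p under 0.05, 17 were higher and 0 lower, and DESeq2 called 17 higher and 0 lower. After subtraction of the background 2 of 45 were called higher, Itgam, the integrin of phagocytes (2.41 ± 0.45, edgeR adjusted p = 0.0452), and Retnlg, a resistin-like protein (2.95 ± 0.58, adjusted p = 0.0496). Of all 13075 genes tested after subtraction, 359 were called higher. In the deposited counts, the median of the other neutrophil genes was 0.57 without mutant 1 and 0.92 without mutant 2. Over all genes the medians were then 0.30 and 0.49. Ly6g, Azu1 and Wfdc21 were not in the tables used here.

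Primary granule genes gave 2 of 8 higher and 0 lower. Elane, neutrophil elastase, had 4.82 and 12.2 CPM in the Bmp4 mutants, against 0, 6.18 and 6.50 CPM in the controls, and the 0 counts of control 1 allow up to 0.0586 CPM (3 counts). Prtn3, proteinase 3, had 14.6 and 14.3 CPM in the mutants, against 8.06, 18.0 and 21.2 CPM in the controls, with the groups overlapping. Ctsg, cathepsin G, was called higher, with 3.58 and 1.59 CPM in the mutants, against 0, 0.243 and 0 CPM in the controls. Bpi, a protein that binds bacterial lipopolysaccharide, was called higher with 3.51 and 2.26 CPM in the mutants, against 0 counts in all controls. In mutants 1 and 2, Bpi stood at 1.18 and 1.06 times the background rate, and Ctsg at 2.32 and 1.43 times, so both calls were of genes near background. Ctsc, which activates the granule proteases, had 42.1 and 42.8 CPM in the mutants, against 33.5, 44.9 and 50 CPM in the controls. It did not pass the test, nor did Serpinb1a or Nkg7.

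Secondary and tertiary granule genes other than the 4 described gave 2 of 13 higher and 0 lower. The called genes were Adam8, a membrane protease (24.5 and 11.4 CPM in the mutants, against 4.30, 5.76 and 3.91 CPM in the controls), and Orm1. Mmp8, neutrophil collagenase, had 5.04 and 10 CPM in the mutants, against 1.43, 1.61 and 4.57 CPM in the controls, which did not pass (edgeR adjusted p = 0.082). Mmp9, gelatinase B, had 6.06 and 6.23 CPM in the mutants, against 18.6, 2.47 and 3.93 CPM in the controls. Its highest value was thus that of control 1. Fcnb, ficolin B, had 11 and 14.9 CPM in the mutants, against 5.37, 2.98 and 12.7 CPM in the controls. Pglyrp1, which binds peptidoglycan, had 3.14 and 10.7 CPM in the mutants, against 13.6, 4.72 and 16.8 CPM in the controls, and Hp, haptoglobin, had 10.7 and 13.6 CPM in the mutants, against 15.6, 4.65 and 20.1 CPM in the controls. These sets overlapped between the groups. Chil3 had 3.29 and 4.53 CPM in the mutants, against 19.4, 4.68 and 0.0623 CPM in the controls, so that controls 1 and 3, alike for Ngp, were far apart. Cd177, Mmp25, Ltb4r1 and Arg1 did not pass either.

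Of 26 receptor, adhesion, oxidase and cytosolic neutrophil genes, 7 were called higher and 0 lower. Among them were Csf3r, the receptor for granulocyte colony-stimulating factor, the chemokine receptor Cxcr4, Itgam, Clec4d and Retnlg. Csf3r had 16 and 11.9 CPM in the Bmp4 mutants, against 0.898, 1.43 and 3.93 CPM in the controls (log2 fold change 2.74 ± 0.65, edgeR adjusted p = 0.0107, and 0.0898 after background subtraction). Itgam had 34.5 and 16.8 CPM in the mutants, against 5.25, 5.12 and 5.30 CPM in the controls, which were nearly equal. In mutants 1 and 2 Itgam stood at 4.79 and 3.23 times background, Csf3r at 2.96 and 3.06 times, and Clec4d at 0.466 and 1.16 times. Stefin A genes, of cytosolic protease inhibitors, varied widely between libraries. Stfa1 had 0.584 and 20.2 CPM in the mutants, against 19.8, 9.51 and 59.9 CPM in the controls, and BC100530, of the same family, had 2.34 and 38.5 CPM in the mutants, against 81.3, 19.5 and 103 CPM in the controls. Stefin A genes have near-identical copies, so their counts are uncertain. The oxidase subunit genes Cyba, Cybb, Ncf1 and Ncf4, and Cxcr2, Fpr2, Itgb2, Itgb2l, Trem1, Selplg, Rac2, Padi4, Stfa2, Stfa2l1 and Stfa3, did not pass.

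Of 11 transcription factor genes of the granulocyte lineage, 3 were called higher (Runx1, Myb and Irf8) and 0 lower. Cebpe, the C/EBP factor needed for secondary granules, had 1.46 and 1.70 CPM in the Bmp4 mutants, against 2.71, 0.706 and 3.78 CPM in the controls, with the groups overlapping. Myb, a factor of progenitors, had 15.9 and 7.30 CPM in the mutants, against 3.57, 3.55 and 3.74 CPM in the controls. Runx1 had 25.8 and 26.2 CPM in the mutants, against 13.4, 13.2 and 16.3 CPM in the controls, and Irf8, a factor of the monocyte branch, had 46.4 and 31.9 CPM in the mutants, against 16.5, 27.3 and 21.8 CPM in the controls. Spi1, which encodes PU.1, had 20.7 and 11.4 CPM in the mutants, against 11.9, 12.2 and 15.4 CPM in the controls, and like Cebpa, Cebpb, Cebpd, Gata1 and Klf5 it did not pass. After background subtraction none of the 7 factors still tested was called.

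Genes for receptors of granule proteins were present in the sorted cells. Bsg, basigin, a receptor for S100a9 protein, had 853 and 685 CPM in the Bmp4 mutants, against 959, 843 and 785 CPM in the controls. Slc22a17, a receptor for lipocalin 2, had 121 and 187 CPM in the mutants, against 255, 177 and 102 CPM in the controls. Neither passed the test. Lrp1, which takes up lactoferrin, was called lower, with 378 and 334 CPM in the mutants, against 556, 551 and 487 CPM in the controls (log2 fold change -0.58 ± 0.17, edgeR adjusted p = 0.0228), and was at -0.16 (adjusted p = 0.556) after subtraction. Of 10 such genes 4 were called higher (Lrp2, Itln1, Cd36 and P2rx7) and 1 lower, where 39.3% of all genes tested were called higher and 15.6% lower. The count is thus near the share over all genes. After background subtraction 1 of 8 was called higher and 0 lower. Lrp2 and Itln1 had at most 3.15 and 0.154 CPM in any control. Emb and Ager did not pass.

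In whole tracheas every granule gene had a low count, with at most 55 counts in any library (Mpo in Wls control 1). Ngp had 0.410 CPM in the Wls mutant (10 counts), against 0.560 and 0.186 CPM in the controls (15 and 6 counts). Ltf had 0.492 CPM in the mutant and 0.411 and 0.0932 CPM in the controls, and Camp 0.164 CPM in the mutant and 0.112 and 0.0311 CPM in the controls. Lcn2 had 0.246 CPM in the mutant and 0.149 and 0 CPM in the controls, where 0 counts allow up to 0.0932 CPM (3 counts). These 4 genes rested on 15 counts or fewer in each library. S100a8 had 0.696 CPM in the mutant and 0.597 and 0.342 CPM in the controls, and S100a9 0.737 CPM in the mutant and 0.672 and 0.404 CPM in the controls. Mpo had 1.39 CPM in the mutant, between the 2.05 and 1.24 CPM of the controls.

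Only Ngp and Mpo lay within the range of the Wls controls. The other 5 genes were above both controls, where 36.8% of 16673 genes were above and 37.4% below. The log2 differences were 0.25 for Ngp, 1.33 for Lcn2, 1.0 for Ltf, 0.78 for Camp, 0.55 for S100a8, 0.44 for S100a9 and -0.19 for Mpo, with a single mutant. By edgeR, which assumes that the mutant varies like the 2 controls, 0 of 5 granule genes tested were called, also at an unadjusted p under 0.05, where 4.31% of 15815 genes were called (1.9% higher and 2.42% lower). DESeq2 kept 1 of them and called 0. Mpo exceeded Ngp per kilobase by 1.51-fold in the mutant and by 1.63-fold and 2.96-fold in the controls. No test was made between tracheas and sorted cells, which were made with different kits.

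Of 31 other neutrophil genes tested in the tracheas, 1 was called higher and 0 lower by edgeR, and 0 by DESeq2. At an unadjusted p under 0.05, 6 were higher and 1 lower. The called gene was Cebpb, a C/EBP factor of many cell types, with 13.46 CPM in the Wls mutant, against 8.03 and 5.22 CPM in the controls (log2 fold change 1.03 ± 0.26, edgeR adjusted p = 0.0041). Elane had 0 CPM in the mutant and 0.0747 and 0 CPM in the controls, and Prtn3 2.46 CPM in the mutant and 2.43 and 2.52 CPM in the controls. Pan-leukocyte markers summed to 136 CPM in the mutant and 128 and 111 CPM in the controls, and erythroid markers to 11407 CPM in the mutant and 13399 and 7736 CPM in the controls. In tracheas, leukocyte and red cell transcripts were thus present beside very few granule transcripts.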

How the data were processed

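RNA was sequenced from 8 libraries. The whole-number counts per gene (1 table for sorted cells, 1 for tracheas) are the authors' deposited values. Tools in the submitters' processing notes, all without versions, are Bowtie2, Cufflinks, DESeq and, for sorted cells, Trim Galore, with build mm10. Which program counted reads, with which annotation and strand setting, is not given in the sources used here. Per the labels' protocols, sorted cells were amplified with SMART-Seq v4 and tracheas with Ovation v2, both followed by Nextera XT.

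Each table was tested on its own in edgeR 4.0.16 (R 4.3.3; TMM, default expression filter, quasi-likelihood F test), with DESeq2 1.42.0 as an alternative. CPM carry TMM factors. Exon lengths came from GENCODE M21 transcripts paired with RefSeq (22841 of 23478 genes, 998 through a synonym), a length measure picked after several had been compared on these data. On simulated data with 4-fold changes in 200 genes the edgeR step recovered 100% in the sorted cells and 91% in the tracheas. Those genes were drawn from levels above those of every granule gene in the tracheas. The simulation used a fixed spread and no added background in the mutants. The recovery therefore does not describe genes at low counts or with a wide spread, such as the granule genes. Replicate pairs had a chi-square of 24.5 to 193 per degree of freedom, so none was a duplicate. The genes, lists and motif strings were chosen with earlier results of these data known. Other neutrophil and receptor genes were named when they reached 5 CPM in any library, were among the called genes of a list, or were defining neutrophil genes (some called genes are not reported here), and the 5 genes most alike had the highest r among genes of 10 CPM or more in any library, on log2(CPM + 0.5).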

Additional observations from a re-analysis of the deposited data

How the results depend on the processing

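In the sorted cells all 77 alternative values of the 7 granule genes kept the sign of the difference. Of these, 68 moved by less than 1 SD of the gene over the controls. That SD was wide, at 3.11 for Mpo, so its fall from 1.96 to 0.17 without control 1 counted among the 68. The median of -2.97 ranged between -3.99 and -0.73 with 1 library left out (-0.73 without mutant 1). In the tracheas 40 of 42 kept the sign, and Ngp was at -0.39 without control 2 and Mpo at 0.17 without control 1. The count of 11888 genes called in the sorted cells lay between 3595 and 10478 with 1 library left out, and that of other neutrophil genes between 1 and 16. It was 3595 without mutant 1 and 7829 without mutant 2. After background subtraction, an alternative chosen after seeing the data that removed counts from the mutants only, the counts were 563 and 2. With scaling from genes above the background, 9171 genes were higher and 1553 lower, in place of 8507 and 3381, and the median over all genes was 0.76 in place of 0.53 (log2). With a replicate block the counts were 4 and 0 (and 0 of the 7 granule genes), with 9833 genes at an unadjusted p under 0.05. Deviations of same-numbered libraries correlated at -0.17 and -0.11. With only 2 mutants centred on their mean, the mutant deviations are exact opposites. These correlations therefore cannot decide whether equal numbers mark paired libraries. In the tracheas DESeq2 called 259 genes in place of 682, and 0 other neutrophil genes in place of 1. No paired analysis was possible there because the groups share only 1 number, and leaving out a control left no test. The cause of these changes was not tested. No granule gene had more than 55 counts in any trachea, which limits the precision there.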

Other observations

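Within the groups of sorted libraries Ngp had an order, with Bmp4 mutant 2 above mutant 1 and control 2 the lowest control, that was chosen after its values were seen. It was shared by 12 of 48 other neutrophil genes that reached 5 CPM in any library (25%), and by 2203 of 16358 genes of that level. The 12 genes were Fcnb, Mmp9, Pglyrp1, Hp, Ltb4r1, Retnlg, Stfa1, Stfa2, Stfa2l1, Stfa3, BC100530 and Runx1. Stfa1, Stfa2, Stfa2l1, Stfa3 and BC100530 are of the stefin A family, whose near-identical copies make counts uncertain, so they are not separate instances. Mutants and controls are not compared by this order, and Runx1 and Retnlg, which share it, were called higher in the mutants. This is a description of library order, with no test.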
